A study of Homo sapiens with 15 samples.

Results

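Serine, the 1-carbon units taken from it and cysteine are linked by a short set of enzymes, and 10 of their genes are described here across 3 treatments aimed at the corepressor CtBP2 in MDA-MB-231 cells. The genes were chosen by name: PHGDH, PSAT1 and PSPH for serine synthesis in the cytosol, SHMT2, MTHFD2, MTHFD1L, ALDH1L2 and GLDC for the folate and glycine steps in mitochondria, and CTH and CBS for transsulfuration. They are 10 of the 30992 gene names on the array and are measured by 18 of its 41000 gene probes.

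In the cytosol, PHGDH oxidises the glycolytic intermediate 3-phosphoglycerate, PSAT1 adds an amino group and PSPH removes the phosphate, which gives serine. In mitochondria, SHMT2 splits serine into glycine and a carbon unit carried on folate. MTHFD2 oxidises this unit and MTHFD1L releases it as formate, while ALDH1L2 burns it to carbon dioxide and GLDC, part of the glycine cleavage system, makes the same kind of unit from glycine. CBS joins serine to homocysteine and CTH cleaves the product to cysteine, the amino acid that limits glutathione synthesis. These enzymes are known for their use by tumour cells, which draw on them for nucleotides and for redox cofactors, and many of their genes are known targets of the transcription factor ATF4.

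MDA-MB-231 is a triple-negative breast cancer cell line. RNA of cells with stable RNA interference of CtBP2 (shCtBP2), of cells given the inhibitor HIPP for 24 h and of cells given the inhibitor P4 for 24 h was labelled with Cy5 and hybridized with Cy3-labelled control RNA, on 5 arrays for each treatment. The labels call every control untreated MDA-MB-231 cells, whereas the study's text sets shCtBP2 cells against cells with a scrambled hairpin, and these readings could not be told apart. The shCtBP2 cells were puromycin-selected transfectants; whether they were 1 clone is not given in the sources used here. HIPP and P4 are the sodium salts of 2-hydroxyimino-3-phenylpropanoate and 2-hydrazone-3-phenylpropanoate, and so carry a hydroxyimino and a hydrazone group at the same position. Their doses on the arrays are not given in the sources used here, and the study's growth curves used different concentrations, so their values stand side by side with no test between them. The labels number the arrays of a treatment as replicates; where separate cultures were not stated, p-values measure only the spread between these arrays, which may be technical. The dyes were not swapped, so a dye effect of a probe cannot be told apart from the treatment in a ratio against 0, but it cancels in a difference between treatments.

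Each array held 43376 gene spots, of which 64.9 to 81.0% were well above background in a channel and none was saturated. VIM, CD44 and CAV1, which this line is known to express, were well above background in the control channel of all 15 arrays, while PGR and CDH1 were so on 0 of 15. GATA3 and ERBB2 were also well above background on all 15, and ESR1 on 11. CTBP2 itself had a mean log2 ratio of -0.41 ± 0.11 (SD, n = 5) in shCtBP2 cells and was below 0 on 5 of 5 arrays, but it missed the threshold of the test (limma, adjusted p = 0.0595). It passed under 6 alternatives of processing and in 2 of 15 fits without 1 array, among them the methods' own unmoderated test (adjusted p = 0.0296) and a fit of each treatment alone (adjusted p = 0.0198), but under no alternative was it called. By real-time PCR and western blot, the study itself reported a significant loss of CtBP2 mRNA and protein in shCtBP2 cells against scrambled controls. Why the array ratio is smaller was not tested. With HIPP the CTBP2 ratio rose on 5 of 5 arrays by a mean of 0.57 ± 0.36 (1.49-fold; limma, adjusted p = 0.00256), though not by the unmoderated test (adjusted p = 0.0938), and with P4 its mean was 0.17 ± 0.35 (adjusted p = 0.344), or 0.53 by its brightest probe, which passed (adjusted p = 0.0451). The arrays lay on 4 slides: 4 P4 arrays on the first, 1 P4 and 3 HIPP arrays on the second, 2 HIPP and 2 shCtBP2 arrays on the third and 3 shCtBP2 arrays on the fourth. The first slide was scanned on another day than the rest. These 4 P4 arrays therefore differ from all HIPP and shCtBP2 arrays in scan day too, which cannot be told apart from their slide.

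All values below are log2 of the treated over the control signal, averaged over the probes of a gene, so that 1 is a doubling. "Rose" and "fell" are used where limma's adjusted p, taken over all genes tested, was under 0.05, and a gene was "called" where its mean also reached 1.5-fold in shCtBP2 cells, 2.5-fold with HIPP or 1.8-fold with P4. The folds are those of the study's methods, which also leave out the genes with the smallest interquartile range of signals in a treatment. Where the arrays of treatments are said not to overlap, the share of all genes with such a gap was not counted.

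With P4, 7 of the 9 enzyme genes tested were called higher and 0 lower, against 4.29% of all tested genes called higher and 4.17% called lower. With HIPP, 2 of 8 were called higher and 0 lower (3.43% and 3.61% of all tested genes), and in shCtBP2 cells 3 of 10 were called higher and 0 lower (3.34% and 3.23%). Under another background correction, fewer of these genes and fewer of all genes were called in each treatment, as the closing section gives. At any fold, 8 of 9 rose with P4 (17.1% of all tested genes) and 4 of 8 with HIPP (24.9%). In shCtBP2 cells 3 of 10 rose and 2 fell at any fold (6.59% and 6.95%). The median log2 ratio over all 10 genes was 1.24 with P4, 0.35 with HIPP and 0.23 in shCtBP2 cells, where the medians over all tested genes were 0.11, 0.08 and 0.04.

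**Figure D1:**
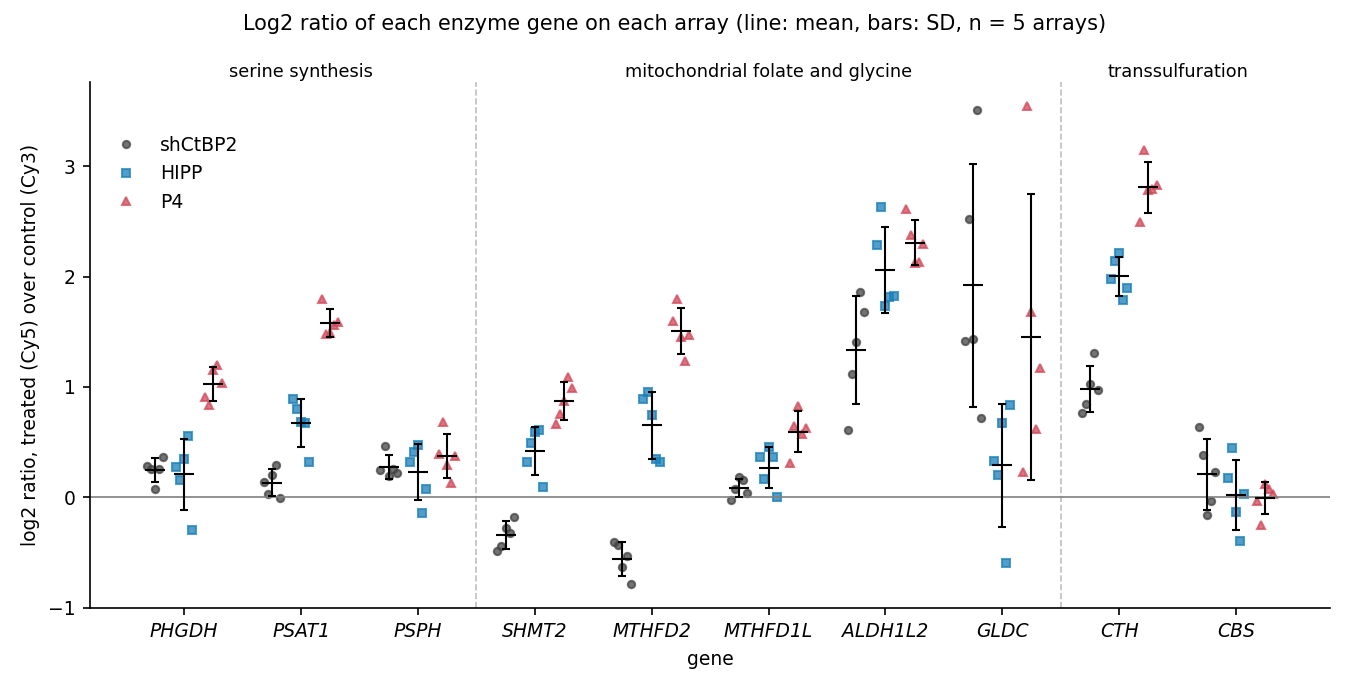
Log2 ratio of treated over control signal (vertical axis) of the 10 enzyme genes (horizontal axis) on each of 15 arrays; points are arrays, horizontal marks the mean and bars the SD of 5 arrays of shCtBP2 (circles), HIPP (squares) and P4 (triangles). The P4 arrays of PHGDH, PSAT1, SHMT2, MTHFD2, MTHFD1L, ALDH1L2 and CTH lie above all shCtBP2 arrays, CTH and ALDH1L2 are above 0 on all arrays, GLDC is scattered and CBS lies around 0.

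PHGDH, the first and committed enzyme of serine synthesis, was at 0.90, 0.83, 1.15, 1.2 and 1.04 on the 5 P4 arrays, a mean of 1.03 ± 0.16 (SD, n = 5; adjusted p = 9.59e-06) or 2.04-fold. With HIPP its values ran from -0.30 to 0.56 (mean 0.21 ± 0.32, adjusted p = 0.116), and in shCtBP2 cells from 0.07 to 0.36 (mean 0.24 ± 0.11, adjusted p = 0.140). All 5 P4 arrays lay above all 5 shCtBP2 arrays, while the HIPP and shCtBP2 arrays overlapped.

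PSAT1, the aminotransferase of the route, also rose with P4. Its log2 ratios with P4 were 1.79, 1.48, 1.49, 1.56 and 1.59, a mean of 1.58 ± 0.13 (SD, n = 5; adjusted p = 5.69e-08) or 2.99-fold. With HIPP they were 0.89, 0.80, 0.68, 0.67 and 0.32, so PSAT1 rose by a mean of 0.67 ± 0.22 (adjusted p = 2.06e-05), which at 1.59-fold was under the fold set for HIPP. In shCtBP2 cells the 5 values lay between -0.01 and 0.30 (mean 0.13 ± 0.12, adjusted p = 0.365). The inhibitor arrays did not overlap the shCtBP2 arrays, although the lowest HIPP array was close to the highest of them.

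PSPH, the phosphatase that ends the route, was not called in any treatment. Its means were 0.27 ± 0.11 in shCtBP2 cells (adjusted p = 0.0855), 0.23 ± 0.26 with HIPP (adjusted p = 0.0736) and 0.37 ± 0.20 with P4, where the filter on the interquartile range left it out of the test. Without that filter its adjusted p with P4 was 0.0122, at 1.30-fold. Its probes 1 and 2 overlap by 47 bases on the genome and match at 44 of them, so they are not independent, and probe 3 shares a run of 20 bases with 8 probes that carry other names. On the HIPP arrays probes 1 and 2 averaged 0.12 and -0.05 and probe 3 averaged 0.60, whereas in shCtBP2 cells the 3 probes averaged 0.27, 0.29 and 0.27. Which of them follows PSPH was not tested.

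SHMT2, which opens the mitochondrial route, moved in opposite directions in shCtBP2 cells and with the inhibitors. In shCtBP2 cells its log2 ratios were -0.49, -0.45, -0.28, -0.33 and -0.18, a fall by 0.34 ± 0.12 (SD, n = 5; adjusted p = 0.0239) to 78.8% of the control signal. With HIPP they were 0.32, 0.49, 0.59, 0.61 and 0.09 (mean 0.42 ± 0.22, adjusted p = 0.00168, and 0.0769 by the unmoderated test). With P4 they were 0.67, 0.75, 0.87, 1.09 and 0.99 (mean 0.87 ± 0.17, adjusted p = 1.25e-05), and the mean of 1.83-fold was just past the 1.8-fold set for P4. All 5 shCtBP2 arrays were below 0 and all 10 inhibitor arrays above it. Its 2 probes start 508 bases apart on the genome, and the probe at the higher coordinate had the higher mean in each treatment, -0.25 against -0.43 in shCtBP2 cells, 0.77 against 0.07 with HIPP and 1.12 against 0.62 with P4, a difference that was not tested. Without P4 replicate 4 or 5 the mean with P4 was 0.82 or 0.84, under the fold for a call, as it was after centring each array on its median (0.85) and after normexp (0.84).

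MTHFD2, the mitochondrial dehydrogenase and cyclohydrolase that is scarce in most adult tissues, fell in shCtBP2 cells and rose with P4. On the shCtBP2 arrays it stood at -0.41, -0.43, -0.63, -0.54 and -0.79, so it fell by 0.56 ± 0.16 (adjusted p = 0.00418) to 67.8% of control, a change of 1.47-fold that was under the 1.5-fold needed for a call. Without the first or the second shCtBP2 array its mean was -0.60 or -0.59, which was called. The HIPP values were 0.89, 0.96, 0.74, 0.35 and 0.32, a mean of 0.65 ± 0.30 or 1.57-fold. The interquartile range filter left this gene out of the HIPP test, and without the filter its adjusted p was 0.000227. With P4 the arrays read 1.60, 1.8, 1.45, 1.23 and 1.47, a mean of 1.51 ± 0.21 (adjusted p = 5.71e-07) or 2.84-fold. No inhibitor array overlapped a shCtBP2 array. The third slide had shCtBP2 arrays at -0.43 and -0.41 beside HIPP arrays at 0.32 and 0.35. With the slide as a fixed block, the fall in shCtBP2 cells was 0.20 (adjusted p = 0.434), and that of SHMT2 was 0.39 (adjusted p = 0.149), so neither passed the test there.

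**Figure D2:**
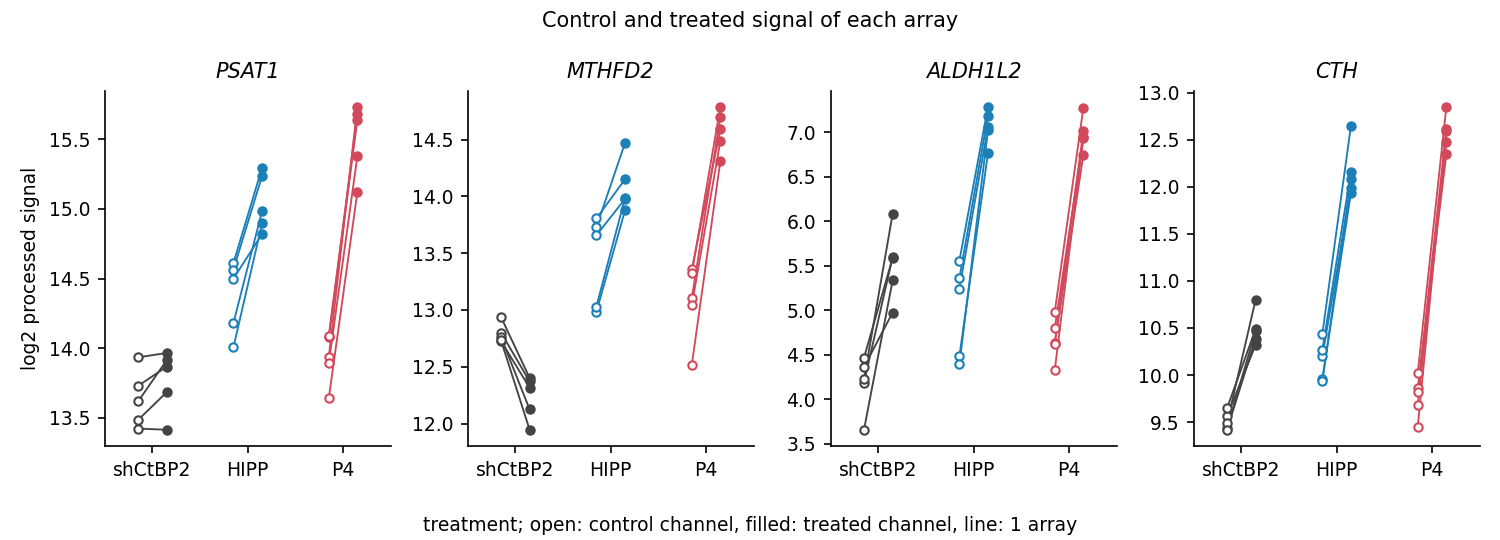
Log2 processed signal (vertical axis; units differ between probes, so genes are not set against each other) of PSAT1, MTHFD2, ALDH1L2 and CTH in the control channel (open points) and the treated channel (filled points) of each array, joined by a line; the horizontal axis gives the treatment. All 5 MTHFD2 lines fall in shCtBP2 cells and all 10 rise with the inhibitors, and all 15 CTH lines rise.

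MTHFD1L, the ligase that frees formate in mitochondria, had a mean over its 4 probes of 0.08 ± 0.08 in shCtBP2 cells (adjusted p = 0.588), 0.27 ± 0.18 with HIPP (not tested because of the interquartile range filter) and 0.59 ± 0.19 with P4 (adjusted p = 0.000199, 1.51-fold, under the fold for a call). With the slide as a fixed block the rise with P4 was 0.57 and did not pass (adjusted p = 0.0727). The gene mean hid a split along the gene with HIPP. The probes lie in order on chromosome 6 in the array's own annotation (build hg17), probe 2 at 13217 bases, probe 3 at 148866 and probe 4 at 206782 from probe 1, and probe 2 was designed on a shorter transcript of the gene. Of these, probes 1 and 3 each span a gap in the genome and have at least 1 reading frame without a stop, and they are shown because they fall on the opposite sides of the split, in lower case throughout since no base of them is singled out:
MTHFD1L probe 1, chr6:151298972-151301138: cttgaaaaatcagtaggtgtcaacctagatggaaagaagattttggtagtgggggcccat
MTHFD1L probe 3, chr6:151447838-151450261: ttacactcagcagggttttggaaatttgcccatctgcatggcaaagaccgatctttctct

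With HIPP, probe 1 read 1.58, 1.33, 1.71, 0.93 and 1.44 and probe 2 read 1.66, 1.83, 1.91, 1.48 and 1.84. On the same arrays probe 3 read -1.03, -1.33, -1.0, -0.72 and -1.94 and probe 4 read -0.74, -1.18, -0.80, -0.24 and -1.34. The first 2 probes were thus above 0 and the last 2 below 0 on 5 of 5 arrays. In a fit of all probes one by one, which was added after the probes were seen to differ, the first 2 were called higher (means 1.40 and 1.74, adjusted p = 7.54e-07 and 4.03e-09; 4.12% of tested probes were called higher). The last 2 fell (means -1.21 and -0.86, adjusted p = 5.10e-06 and 6.35e-05; 25.2% of tested probes fell at any fold) by less than the fold for a call. The first pair exceeded the last pair by a mean of 2.60 ± 0.59 (SD, n = 5, lowest 1.69). The pairs were formed after these values were seen, so the difference is a description with no test. With P4 the first pair was called higher too (means 1.02 and 0.98; 4.43% of tested probes), while probe 3 averaged 0.11 (adjusted p = 0.557) and probe 4, not tested, 0.27. There the first pair exceeded the last by 0.81 ± 0.25 on average and on 5 of 5 arrays. In shCtBP2 cells the difference was 0.05 ± 0.18 and was above 0 on 3 of 5 arrays. Probe 2 rose there in the fit of single probes (mean 0.31, adjusted p = 0.0269; 6.77% of tested probes rose at any fold). Probes 1, 3 and 4 did not pass.

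Probes of a gene often disagreed with HIPP, so the split of MTHFD1L is one of many in kind. Of 6153 genes with several tested probes, 884 (14.4%) had a probe that rose and a probe that fell at any fold, against 16 of 6037 in shCtBP2 cells and 261 of 6072 with P4. Its size was less usual. Among 5493 genes with several probes well above background on all HIPP arrays, the highest and lowest probe differed by a median of 0.61, by 2.95 in MTHFD1L, and by at least as much as in MTHFD1L in 39 genes (0.71%).

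**Figure D3:**
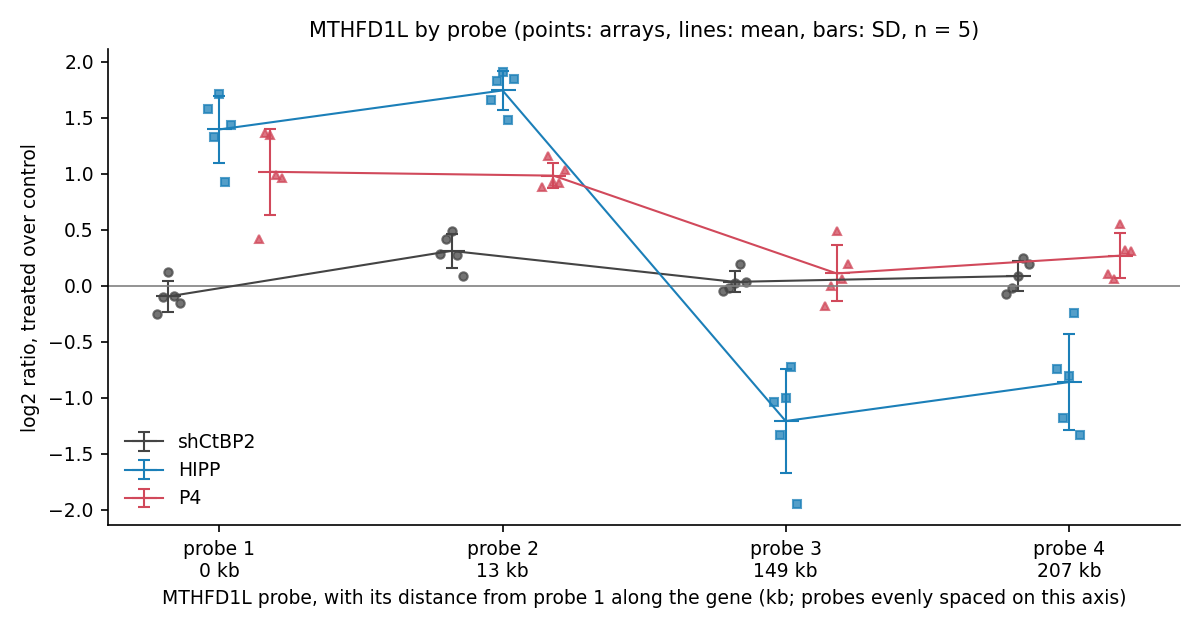
Log2 ratio (vertical axis) of the 4 MTHFD1L probes, in their order along the gene (horizontal axis, with distance from probe 1 in kb, probes drawn evenly spaced), on 5 arrays each of shCtBP2 (circles), HIPP (squares) and P4 (triangles); lines join the means and bars are the SD. With HIPP the first 2 probes lie between 0.93 and 1.91 and the last 2 between -1.94 and -0.24, and in shCtBP2 cells the means of the 4 probes lie between -0.09 and 0.31.

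ALDH1L2, the mitochondrial enzyme that oxidises the folate-bound carbon unit to carbon dioxide, was called higher in each treatment. Its log2 ratios were 0.61, 1.12, 1.41, 1.86 and 1.68 in shCtBP2 cells (mean 1.33 ± 0.49, adjusted p = 0.000126), 2.28, 2.63, 1.73, 1.82 and 1.82 with HIPP (mean 2.06 ± 0.39, adjusted p = 1.71e-07) and 2.61, 2.38, 2.12, 2.13 and 2.29 with P4 (mean 2.31 ± 0.20, adjusted p = 4.37e-07). It was above 0 on all 15 arrays. The sizes are less sure than the direction because the gene is dim. Probe 1 was well above background in both channels of every array, and its means were 1.23 for shCtBP2, 0.68 for HIPP and 1.82 for P4. Probe 2 was well above background in 3 of 5 treated and 0 of 5 control channels of the shCtBP2 arrays. With HIPP and with P4 it was so in 2 of 5 control channels. A bound for shCtBP2 sets the treated channel against the control channel. Control signals under the dimmest one that counts as above background are raised to that level. The bound came to 1.13-fold, but only 1 control signal was raised, so it is close to a plain estimate and no firm lower limit. Probe 2 had means of 3.43 with HIPP and 2.80 with P4, and probe 1 alone was under the fold for a call with HIPP. After another background correction, normexp with an offset of 50 followed by loess, the gene means were 0.36 for shCtBP2, 0.38 for HIPP and 0.81 for P4. They still passed the test (adjusted p = 0.0135, 0.00241 and 1.09e-05), but none reached the fold for a call. The control signals of probe 1 were 46.4 to 112 units, close to that offset.

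The size of the change of GLDC, the glycine decarboxylase, could not be measured. In shCtBP2 cells it read 1.41, 2.52, 1.43, 3.51 and 0.72 and was called higher (mean 1.92 ± 1.10, adjusted p = 0.00778), but its probe was not well above background in any control channel there. The bound described for ALDH1L2 came to 1.13-fold here, with 0 control signals raised. It thus only restates the value after normexp, which did not pass, and is no firm lower limit. With P4 it read 0.23, 3.55, 1.68, 0.61 and 1.17 (mean 1.45 ± 1.30, adjusted p = 0.0172), with 3 of 5 treated and 2 of 5 control channels well above background. Without the second P4 array the mean was 0.92 (adjusted p = 0.0729). Neither call held with the slide as a fixed block, where the mean was 2.18 in shCtBP2 cells (adjusted p = 0.110) and 1.09 with P4 (adjusted p = 0.442), nor by the unmoderated test (adjusted p = 0.0522 and 0.213). With HIPP the mean was 0.29 ± 0.56 (adjusted p = 0.589). After normexp the means were 0.18 in shCtBP2 cells, 0.19 under P4 and -0.02 under HIPP, and none passed the test (adjusted p = 0.186, 0.0770 and 0.861).

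CTH, the cystathionine gamma-lyase that releases cysteine, rose in each treatment and was above 0 on all 15 arrays. On the shCtBP2 arrays it read 0.76, 0.84, 1.03, 1.31 and 0.97, a mean of 0.98 ± 0.21 (SD, n = 5; adjusted p = 2.99e-05) or 1.97-fold. On the HIPP arrays it read 1.98, 2.14, 2.21, 1.78 and 1.89, a mean of 2.00 ± 0.18 (adjusted p = 5.41e-09) or 4.01-fold. With P4 it read 2.49, 3.14, 2.79, 2.79 and 2.83, a mean of 2.81 ± 0.23 (adjusted p = 7.65e-10) or 7.0-fold. Its single probe (chr1:70617062-70617121, hg17) was well above background in both channels of all 15 arrays, with control signals of 684 to 1387 units, and no inhibitor array overlapped a shCtBP2 array. On the third slide the shCtBP2 arrays were at 0.76 and 0.84 and the HIPP arrays at 1.78 and 1.89. After normexp the means were 0.83 in shCtBP2 cells, 1.73 under HIPP and 2.70 under P4, and all 3 calls held.

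CBS, the enzyme before CTH in transsulfuration, did not pass the test in any treatment by the mean of its probes. Its means were 0.21 ± 0.32 in shCtBP2 cells (adjusted p = 0.300), 0.02 ± 0.32 with HIPP (adjusted p = 0.897) and -0.01 ± 0.15 with P4 (adjusted p = 0.957). It is dim, with at least 1 of its 2 probes well above background in 2 treated and 3 control channels of the 5 shCtBP2 arrays, and its probes went opposite ways there (-0.48 and 0.90). Fitted alone, probe 2 was called higher in shCtBP2 cells (adjusted p = 0.00942), but it was not well above background in either channel of any of these arrays, so no fold is given for it. CBS has a near-identical copy in newer assemblies, and whether these probes tell the copies apart was not tested.

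**Figure D4:**
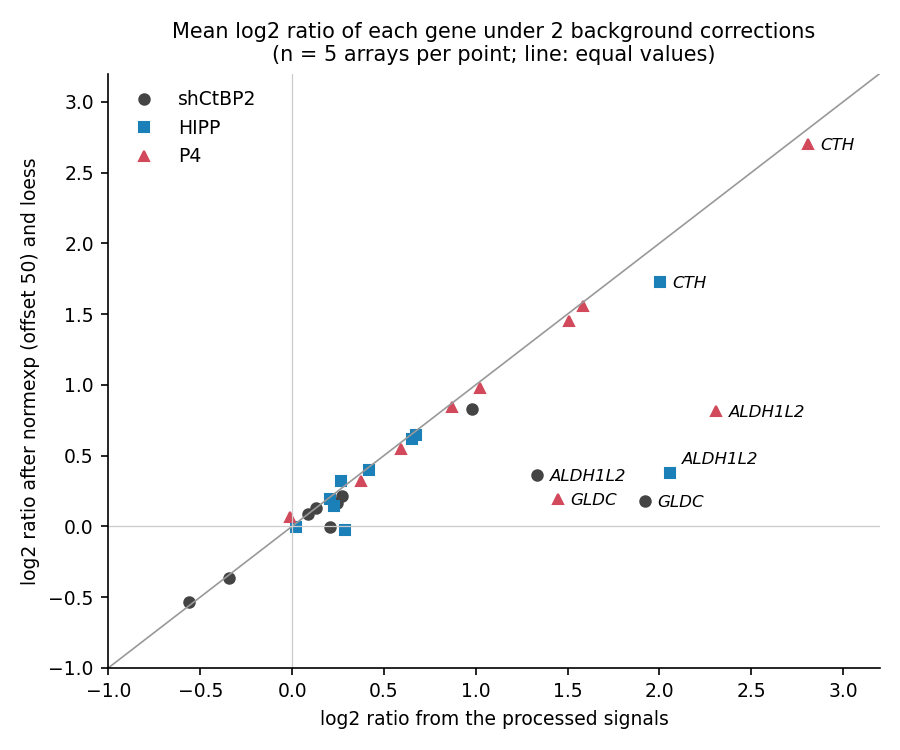
Mean log2 ratio of each of the 10 genes in each treatment (circles shCtBP2, squares HIPP, triangles P4; n = 5 arrays) from the processed signals (horizontal axis) against the same after normexp with an offset of 50 and loess (vertical axis); the line marks equal values. CTH stays close to the line, at 2.81 and 2.70 with P4, while ALDH1L2, at 2.31 and 0.81 with P4, and GLDC fall far below it.

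Since a dye effect cancels between treatments, each inhibitor was also set against shCtBP2 cells. P4 gave a larger log2 ratio than the knockdown for 7 of the 9 genes tested and a smaller one for 0, where 6.15% of all tested genes had a larger and 5.96% a smaller ratio. The difference was 2.07 for MTHFD2 (95% confidence interval 1.73 to 2.40, adjusted p = 3.05e-06), 1.83 for CTH (1.51 to 2.14, adjusted p = 3.69e-06), 1.45 for PSAT1 (1.18 to 1.72, adjusted p = 8.12e-06), 1.22 for SHMT2 (0.94 to 1.5, adjusted p = 4.69e-05) and 0.78 for PHGDH (0.46 to 1.10, adjusted p = 0.00336). MTHFD1L (0.51, adjusted p = 0.0156) also differed by the mean of its probes. With each probe fitted alone, its probes 1 and 2 differed by 1.11 and 0.67 (adjusted p = 0.00144 and 0.00238). Its probe 3 did not (0.08, adjusted p = 0.841), and probe 4, at 0.18, was not tested. ALDH1L2 differed too, but the gene mean's 0.97 (adjusted p = 0.0138) is no size because probe 2 was at background in the shCtBP2 controls. Probe 1 of ALDH1L2 alone differed by 0.59 (adjusted p = 0.0437), and the gene after normexp by 0.45 (adjusted p = 0.0186). The interval for CBS (-0.60 to 0.16) held 0, but it averages probes that differed in opposite directions from the knockdown, probe 1 by 0.60 (adjusted p = 0.152) and probe 2 by -1.04 (adjusted p = 0.0281), the latter well above background in neither channel of any shCtBP2 array. P4 and shCtBP2 arrays shared no slide. With the slide as a fixed block, which links them through the HIPP arrays, MTHFD2 (1.36, adjusted p = 0.0476) and CTH (1.76, adjusted p = 0.0382) still differed and the other 5 did not pass, with PSAT1 at 1.21 (adjusted p = 0.0556) and SHMT2 at 1.34 (adjusted p = 0.0548).

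By the gene means, HIPP gave a larger log2 ratio than the knockdown for 4 of 8 genes tested and a smaller one for 0, where 12.2% of all tested genes had a larger and 14.1% a smaller ratio. For 1 of the 4, ALDH1L2, the direction did not hold by probe, which leaves 3. The 4 were CTH (difference 1.02, 95% confidence interval 0.71 to 1.33, adjusted p = 0.000113), SHMT2 (0.76, interval 0.48 to 1.04, adjusted p = 0.000525), PSAT1 (0.54, interval 0.27 to 0.81, adjusted p = 0.00482) and ALDH1L2 (0.72, interval 0.22 to 1.22, adjusted p = 0.0325). For ALDH1L2 the direction depends on the probe. Probe 1, which was well above background in both channels of every array, was lower with HIPP (0.68) than in shCtBP2 cells (1.23), a difference of -0.55 (adjusted p = 0.0339, each probe fitted alone), and the gene's difference came from probe 2 (3.43 and 1.44), which was at background in the shCtBP2 controls, so no direction is given for this gene. MTHFD2 and MTHFD1L were left out by the filter. Without it the difference of 1.21 for MTHFD2 passed (adjusted p = 4.93e-05) and that of 0.18 for MTHFD1L did not (adjusted p = 0.309). The latter averages probes that differed in opposite directions. Fitted alone, MTHFD1L probes 1 and 2 differed by 1.49 and 1.43 (adjusted p = 3.50e-05 and 1.64e-06). Its probes 3 and 4 differed by -1.24 and -0.95 (adjusted p = 0.00025 and 0.00121). For PHGDH the interval was -0.36 to 0.28, so a difference of more than 0.36 in either direction lay outside it. CBS did not differ by its gene mean (-0.19, adjusted p = 0.472). Its probe 2 alone differed by -0.98 (adjusted p = 0.0196), but was well above background in neither channel of any shCtBP2 array. No difference is given for GLDC, whose control signals on the shCtBP2 arrays were at background. After normexp, ALDH1L2 no longer differed between HIPP and the knockdown (0.02, adjusted p = 0.939). With the slide as a fixed block PSAT1 did not pass (0.41, adjusted p = 0.149).

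**Figure D5:**
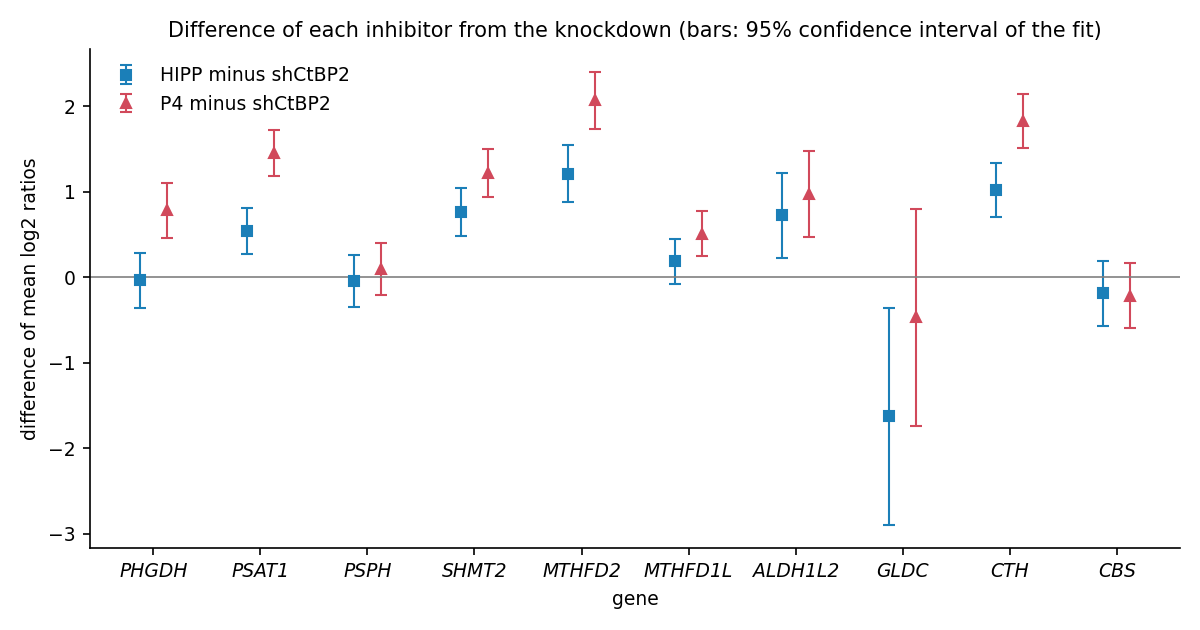
Difference of the mean log2 ratios (vertical axis) between an inhibitor and shCtBP2 cells for the 10 genes (horizontal axis), HIPP as squares and P4 as triangles, with the 95% confidence interval of the fit over 15 arrays. GLDC in shCtBP2 cells and probe 2 of ALDH1L2 had control signals at background, so these 2 genes' points are not sizes. The HIPP point of MTHFD1L averages probes that differed from the knockdown in opposite directions. The P4 intervals of PHGDH, PSAT1, SHMT2, MTHFD2, MTHFD1L, ALDH1L2 and CTH lie above 0, and those of PSPH, GLDC and CBS include it.

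Averaged over the genes of a step, serine synthesis stood at 0.99 ± 0.03 (SD, n = 5 arrays) with P4, 0.37 ± 0.20 with HIPP and 0.22 ± 0.05 in shCtBP2 cells. The mitochondrial genes other than GLDC averaged 1.32 ± 0.05, 0.85 ± 0.19 and 0.13 ± 0.14 in the same order (with GLDC, at background in the shCtBP2 controls, 1.35, 0.74 and 0.49), and the transsulfuration genes 1.40 ± 0.10, 1.01 ± 0.22 and 0.60 ± 0.10. Both mitochondrial means hold the dim ALDH1L2 at 2.31, 2.06 and 1.33, where after normexp it was 0.81, 0.38 and 0.36. Their size therefore depends on the background correction, and the step means were not taken after normexp. These means mix genes that moved with genes that did not: CTH carried the transsulfuration mean, and in shCtBP2 cells the mitochondrial mean held ALDH1L2, which rose, beside SHMT2 and MTHFD2, which fell. Over the 15 arrays, the genes with the most similar course to a step's mean among 11490 candidates by Pearson's r, which reads the course and not the level, were TGFA (r = 0.96), SNRPG (0.95) and SLC7A1 (0.93) for serine synthesis, SLC7A1 (0.91), TLR1 (0.91) and PTGS2 (0.90) for the mitochondrial genes (GLDC included) and KDM7A (0.96), SEL1L3 (0.92) and CNN1 (0.92) for transsulfuration. TGFA and SNRPG were mostly below control, with means of -1.76 and -0.54 for shCtBP2, -1.05 and -0.41 for HIPP and 0.06 and -0.14 for P4, whereas the means of the other 6 genes were above 0 in each treatment. The 15 points fall into 3 treatments and share slides, and no p is given.

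Other genes of these routes were taken from textbook pathways. The shares of all tested genes that rose and fell at any fold were 24.9% and 23.9% for HIPP, 17.1% and 14.8% for P4, and 6.59% and 6.95% for shCtBP2, against which the counts that follow are to be read. Of the cytosolic folate enzymes, which mirror the mitochondrial ones, 0 of 8 tested rose and 6 fell at any fold with HIPP (23.9% of all tested genes fell), with a median of -0.68. Chosen after their values were seen as the cytosolic counterparts, SHMT1 fell by 0.79 (adjusted p = 3.30e-06) and MTHFD1 by 0.96 (adjusted p = 6.99e-06) with HIPP, while SHMT2 rose. ALDH1L1, the counterpart of ALDH1L2, went the other way. It averaged 0.23 with HIPP (not tested, above 0 on 5 of 5 arrays) and rose by 0.58 with P4 (limma, adjusted p = 0.00345). With P4, 1 of 7 cytosolic genes rose and 3 fell at any fold (14.8% of all tested genes fell; median -0.28), and in shCtBP2 cells 0 of 7 rose or fell (2 had an unadjusted p under 0.05). None of these was called in any treatment, though with the slide as a fixed block MTHFD1 in shCtBP2 cells was at -0.60 and called (adjusted p = 0.0497). Of 14 other serine and glycine genes tested with HIPP, 5 rose and 2 fell at any fold, of 12 with P4, 4 rose and 2 fell, and of 14 in shCtBP2 cells 2 rose and 1 fell. SDSL, a serine dehydratase-like gene, was called with HIPP (mean 1.49 ± 0.33, adjusted p = 3.53e-07) and with P4 (0.92 ± 0.33, adjusted p = 0.000138), though without the second P4 array the latter was 0.82 and under the fold, and with the slide block it was 0.58 and did not pass (adjusted p = 0.126). Of the other mitochondrial folate genes, 1 of 4 rose and 1 fell with HIPP, 2 rose and 1 fell with P4, and 0 rose or fell in shCtBP2 cells (1 had an unadjusted p under 0.05). With HIPP these counts are at the shares of all tested genes.

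Of the methionine cycle genes tested, 1 of 9 rose and 3 fell with HIPP (24.9% and 23.9% of all tested genes), 1 of 9 rose and 0 fell with P4 (17.1% and 14.8%), and 1 of 11 rose and 1 fell in shCtBP2 cells (6.59% and 6.95%), none far from its share. NNMT, a methyltransferase that consumes the methyl donor, was the one called, with P4 (mean 0.98 ± 0.21, adjusted p = 0.00284), but after normexp its mean was 0.17, and it did not pass with the slide block (0.78, adjusted p = 0.254) or by the unmoderated test (adjusted p = 0.114). Of the genes that use cysteine, 5 of 7 rose and 2 fell with HIPP (24.9% and 23.9% of all tested genes), 3 of 10 rose and 0 fell with P4 (17.1% and 14.8%), and 0 of 5 rose or fell in shCtBP2 cells (0 had an unadjusted p under 0.05). CDO1, the cysteine dioxygenase, was called with HIPP (mean 1.87 ± 1.01, adjusted p = 0.000962), a value that normexp lowered to 0.14. Of the folate uptake genes, 1 of 4 rose and 1 fell with HIPP, 1 of 4 rose with P4, and 1 of 6 rose and 1 fell in shCtBP2 cells, which are close to the shares of all tested genes. FOLR1, a folate receptor, was the one called, in shCtBP2 cells (mean 0.75 ± 0.51, adjusted p = 0.00323), and without the fifth array it was 0.55 and under the fold. It did not pass with the slide block (0.46, adjusted p = 0.240) or by the unmoderated test (adjusted p = 0.260).

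Of 8 genes of the ATF4 branch of the integrated stress response, listed because several enzymes here are known targets of ATF4, 8 of 8 tested rose with HIPP (24.9% of all tested genes) and 7 were called higher (3.43%), and 8 of 8 were called higher with P4 (4.29%). Their median log2 ratios were 1.56 and 1.60. With HIPP the largest were PPP1R15A, a phosphatase subunit that reverses the response (mean 2.28 ± 0.35, adjusted p = 6.15e-09), and the transcription factor ATF3 (2.20 ± 0.57, adjusted p = 3.30e-06), which after normexp was 1.03 and under the fold, and with P4 the pseudokinase TRIB3 (1.84 ± 0.45, adjusted p = 7.58e-06) and CHAC1, which degrades glutathione (1.79 ± 0.50, adjusted p = 3.49e-06). In shCtBP2 cells 3 of 7 rose at any fold (6.59% of all tested genes), 1 was called (3.34%; CHAC1, 0.64 ± 0.25, adjusted p = 0.0187), and the median was 0.34. Without shCtBP2 replicate 3, 4 or 5, CHAC1 did not pass (adjusted p = 0.0599, 0.0671 and 0.0758), nor with the slide block (0.52, adjusted p = 0.163) or by the unmoderated test (adjusted p = 0.392), and after normexp it was 0.55 and under the fold. The part of ATF4 in the enzymes' changes was not tested.

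RefSeq promoters (GRCh38.p14, 300 bases around each start) were at hand for 7 of the 10 genes. The core of the C/EBP-ATF response element (TGATGNAA, either strand) occurred in 1 of these 7, MTHFD1L, and in 3.67% of 27305 promoters. The core of the antioxidant response element (TGACNNNGC) occurred in 2, MTHFD2 and CBS, and in 13.6% of promoters, and the E-box (CACGTG) in 1, again MTHFD1L, and in 7.43%. The 250 bases before the start are shown for CTH, the one enzyme with a promoter at hand that both inhibitors called, and for MTHFD1L, chosen after its first 2 probes were seen to rise with both, with matches in capitals (in MTHFD1L the E-box at -154 and the C/EBP-ATF core at -129 from the start; in CTH none):
CTH promoter, chr1:70411018-70411267, plus strand: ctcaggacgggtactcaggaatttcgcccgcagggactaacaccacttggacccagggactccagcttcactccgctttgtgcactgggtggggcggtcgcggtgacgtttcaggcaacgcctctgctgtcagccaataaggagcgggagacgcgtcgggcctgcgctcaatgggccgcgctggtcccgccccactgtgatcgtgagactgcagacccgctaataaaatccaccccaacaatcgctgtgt
MTHFD1L promoter, chr6:150866236-150866485, plus strand: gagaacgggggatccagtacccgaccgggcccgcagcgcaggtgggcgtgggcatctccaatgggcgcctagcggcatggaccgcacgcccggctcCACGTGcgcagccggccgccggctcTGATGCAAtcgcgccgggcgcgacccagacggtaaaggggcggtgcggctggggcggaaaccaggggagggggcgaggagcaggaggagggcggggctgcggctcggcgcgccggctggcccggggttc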

How the data were processed

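The authors corrected the background of each spot, including a spatial trend, and removed dye bias with Agilent Feature Extraction (version 9.5.3.1), and deposited per-spot signal intensities, flags and log10 ratios; their series table holds the same log10 ratios rounded. From the deposited intensities, log2 of Cy5 over Cy3 was taken per spot, the 78 to 265 spots per array flagged as outliers were left out, and spots of a probe and then probes of a gene were averaged. Of 41000 probes, 23434 were named by accession, 2317 by current and 1040 by older symbol; the others kept the name in the files. Genes measured on at least 3 arrays of a treatment and above the 11th percentile of interquartile range were tested. Log2 ratios were tested against 0, and between treatments, in 1 fit over 15 arrays with limma (version 3.58.1, R 4.3.3) and Benjamini-Hochberg adjustment, a moderated test in place of the methods' Student's test, which was run as an alternative. The number of arrays limits the precision. The fit was tested on simulated data. The genes, gene lists and motifs were chosen with earlier results of these data known. By rule the text names all 10 enzymes, CTBP2, CTBP1, at most the 2 called genes with the largest ratio of each other list, and the 3 genes most like each step. Outside the rule it names cell line markers and, chosen after their values were seen, SHMT1, MTHFD1 and ALDH1L1. CTBP1 did not pass in any treatment (mean 0.29 in shCtBP2 cells, -0.13 under HIPP and -0.05 under P4), but under HIPP it passed after normexp (-0.30, adjusted p = 0.0240) and by its brightest probe (-0.54, adjusted p = 0.0162).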

Additional observations from a re-analysis of the deposited data

Results flagged for a closer look

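PSPH on the second shCtBP2 array had a log2 ratio of 0.46, set apart from the other 4 arrays, which lay between 0.19 and 0.25. Its gap to the nearest array was 0.78 of the whole range, and it was the 1 sample that stood apart among 52 groups of 5 arrays looked at, where chance sets apart about 1 in 20.

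Responses that differed between an inhibitor and the knockdown, by limma's test of the difference, were found for 4 genes with HIPP and 7 with P4. HIPP exceeded shCtBP2 by 0.54 for PSAT1, 0.76 for SHMT2, 0.72 for ALDH1L2 and 1.02 for CTH on the log2 scale. For ALDH1L2 this holds for the mean of its probes only: probe 1, detected on all arrays, differed by -0.55, and after normexp the gene differed by 0.02. P4 exceeded shCtBP2 by 0.78 for PHGDH, 1.45 for PSAT1, 1.22 for SHMT2, 2.07 for MTHFD2, 0.51 for MTHFD1L, 0.97 for ALDH1L2 and 1.83 for CTH. For ALDH1L2, probe 2 was at background in the shCtBP2 controls, and probe 1 alone differed by 0.59. For MTHFD1L, probes 1 and 2 alone differed by 1.11 and 0.67, probe 3 by 0.08 (limma, adjusted p = 0.841) and probe 4, not tested, by 0.18.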

How the results depend on the processing

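After normexp and loess, 1 enzyme gene was called higher for shCtBP2, 1 for HIPP and 4 for P4, the median over the 10 genes was 0.149 in shCtBP2 cells and 0.827 with P4, and 2 genes differed between HIPP and shCtBP2, where SHMT2 was left out by the filter. Calls over all genes were then 269, 279 and 584 for shCtBP2, HIPP and P4, against 1813, 1944 and 2333. The methods' Student's test gave 969, 1618 and 891, and a fold of 1.5 for all treatments gave 8976 with HIPP and 4831 with P4. With each array centred on its median, 1 gene, MTHFD2, was called lower in shCtBP2 cells, and 6 in place of 7 were called higher with P4, SHMT2 being lost. With the brightest probe of each gene the median with HIPP was 0.662. With the slide as a fixed block the medians were 0.429 in shCtBP2 cells and 1.03 with P4, 2 genes differed between P4 and shCtBP2 and 3 in place of 4 between HIPP and shCtBP2 (PSAT1 lost), and 2 in place of 3 enzyme genes were called in shCtBP2 cells and 6 in place of 7 with P4, GLDC being lost in both. Leaving out 1 array at a time, 0 to 1 genes were called lower in shCtBP2 cells, and the median ran from 0.183 to 0.291 there and from 0.999 to 1.28 with P4.

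The values that changed sign were mostly near 0. After normexp CBS was -0.00540 for shCtBP2, -0.00416 for HIPP and 0.0648 for P4, and GLDC for HIPP was -0.0234. CBS with HIPP was -0.0331 after centring, -0.149 with the slide block, -0.0750 by probe 2 alone and -0.0830 to 0.126 leaving out 1 array. CBS with P4 was 0.121 by the brightest probe, by probe 1 alone or by spots above background, 0.0313 in the series table's values and -0.0435 to 0.0494 leaving out 1 array. CBS in shCtBP2 cells was -0.48 by the brightest probe, which is probe 1, and -0.36 by spots above background. CTBP1 with P4 was 0.0319 by the brightest probe, 0.244 with the slide block and -0.232 to 0.0652 leaving out 1 array. By single probes, MTHFD1L was -0.0948 in shCtBP2 cells by probe 1, and PSPH was -0.0465 with HIPP by probe 2. MTHFD1L with HIPP was -1.21 and -0.86 by probes 3 and 4, which is the split described above and not a change near 0. The cause was not tested.

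Replicate numbers were shared between treatments, and same-numbered arrays correlated at -0.01 to 0.46 in their deviations from the treatment means (median 0.156, and -0.089 between different numbers). Of these 15 pairs 13 were over 0.1 and not all, so the numbers were not taken to pair the arrays, and 7 of 15 arrays correlated best with an array of their own number. A replicate block gave 2222, 1943 and 2429 calls over all genes and changed no count of enzyme genes called, while CTBP2 in shCtBP2 cells (adjusted p = 0.0348) and PSPH in shCtBP2 cells and with HIPP (adjusted p = 0.0413 and 0.0357) then passed and 3 genes differed between HIPP and shCtBP2, ALDH1L2 being lost (adjusted p = 0.0565). Signals near background limit what can be said of GLDC, CBS and ALDH1L2.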
